A study of Rattus norvegicus with 24 samples.

Results

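Dorsal root ganglia (DRG) of contused rats that trained by swimming (CONT SCI + SWIM, 5 samples) were compared with those of contused rats that did not train (CONT SCI, 6 samples). The samples were chosen by the group in their GEO titles, which gave 11 of the 24 samples of the series. All 11 came from Sprague Dawley rats whose spinal cord had been contused at T2 (25 g-cm), and the study used females only. Both groups lived in pairs in tiny cages that limited walking. Training in the CONT SCI + SWIM group began 2.5 weeks after injury and ran for 10 weeks on 5 days a week. Tissue was collected 13.5 weeks after injury in CONT SCI + SWIM and 11.5 weeks after injury in CONT SCI, so swimming and the time of collection cannot be told apart in this comparison. Each sample held the T11 to L4 ganglia of both sides of 1 animal. The other groups appear here for their values only: No SCI (4 uninjured rats in tiny cages, 11.5 weeks), CONT SCI + SWW (5 contused rats trained by shallow water walking, 13.5 weeks) and TX SCI (4 rats with a complete T2 transection and no training, 8.5 weeks).

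DRG hold the cell bodies of the sensory neurons that carry touch, position, temperature and pain from the body to the spinal cord. The T11 to L4 ganglia lie below a T2 injury. It spares their cell bodies and peripheral branches, can sever the central branches of neurons that ascend in the dorsal columns, and reduces the input that the cord below it receives from the brain, which a complete transection abolishes. Satellite glia, Schwann cells, fibroblasts, vessel cells and macrophages share the ganglion with the neurons, and whole ganglia were sequenced. In such bulk tissue, fewer cells of a type and less RNA per cell cannot be told apart. The study asked how exercise alters the transcript profile of DRG after injury. The rows of the count matrix carry Ensembl identifiers, and the annotation table used here pairs 0 of them with a symbol. Genes are therefore given by identifier, no row was assigned to a pathway or cell type, and the sensory neuron identity of the tissue was not checked against its markers.

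The values are read counts per gene. The total count ranged from 16086670 to 29709101 in CONT SCI + SWIM (median 25550757) and from 30462475 to 38370849 in CONT SCI, so the totals of the groups did not overlap. The difference of the means was -10342672 counts (two-sided exact permutation, p = 0.00433, and no smaller p is possible with 5 and 6 samples). Between 16915 and 17427 genes had a count in a CONT SCI + SWIM sample and between 17447 and 17665 in a CONT SCI sample. CONT SCI replicate 4 stood apart from its group, with 2.61% of its counts on its most counted gene where the remaining contused samples had 1.52% to 1.74%. It was kept, and values without it are given where they bear on a result. Within either group, counts of any pair of samples differed by a chi-square of 2.89 or more per gene, so none agreed within sampling noise.

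Swimming after contusion went with lower levels of many genes, with falls of 8-fold or more in 56. Of 15179 genes tested, 4880 (32.1%) had an adjusted p under 0.05 in edgeR's quasi-likelihood test of CONT SCI + SWIM minus CONT SCI, and these are referred to as called. CONT SCI + SWIM was higher for 1912 of the called genes (12.6% of genes tested) and lower for 2968 (19.6%). An unadjusted p under 0.05 was reached by 6356 genes (41.9%). For 2340 called genes, every CONT SCI + SWIM sample lay on the same side of every CONT SCI sample, 716 higher and 1624 lower. Among all genes tested, 15.8% had no overlap between the groups, 4.93% with CONT SCI + SWIM higher and 10.9% with CONT SCI + SWIM lower. The balance of directions depended on scaling: with upper-quartile scaling in place of TMM (the trimmed mean method used throughout), 56.2% of 5244 called genes were higher in CONT SCI + SWIM, against 39.2% of 4880 with TMM. The median log2 fold change of all genes was 0.0457 with that scaling and -0.011 with TMM. Without CONT SCI replicate 4, 5451 genes were called. A test against a change of 0.25 on the log2 scale (glmTreat in edgeR) called 1322 genes, 198 higher and 1124 lower.

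Most changes were small, and the falls were larger than the rises. The median log2 fold change was 0.26 over the genes that rose and -0.41 over those that fell. Of the genes that rose, 46.4% changed by less than 0.25 on the log2 scale and a further 37.9% by less than 0.5. Of the genes that fell, 20.5% changed by less than 0.25 and 40.6% by 0.25 to 0.5. A change of at least 1 on the log2 scale, or 2-fold, was reached by 91 genes that rose (0.6% of genes tested) and 370 that fell (2.44%). This imbalance of large changes kept its direction under the scalings tried, with 108 rises and 344 falls under upper-quartile scaling and 93 and 355 under relative log expression scaling (RLE). At 3 on the log2 scale, or 8-fold, there were 1 rise and 56 falls.

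**Figure D1:**
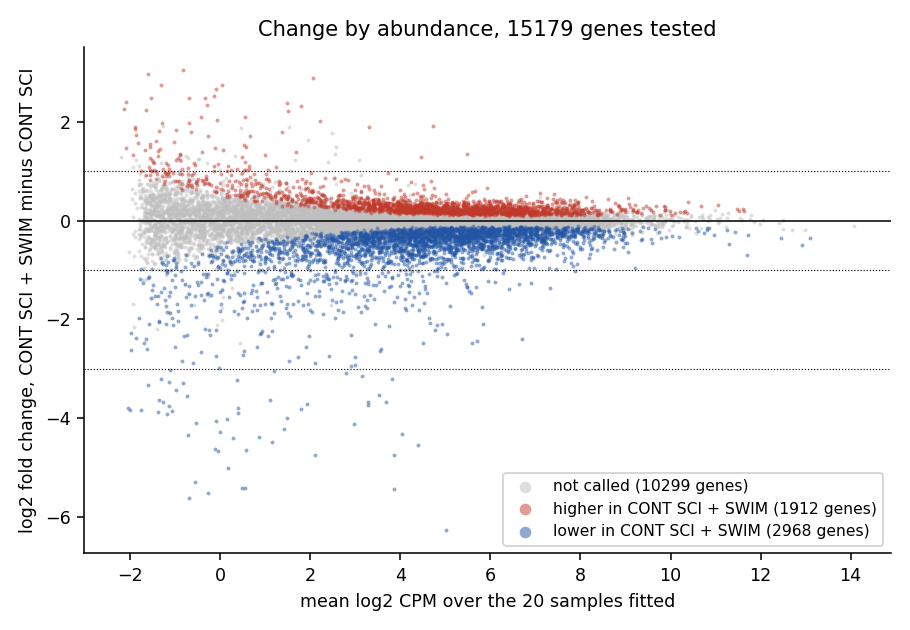
Log2 fold change of CONT SCI + SWIM minus CONT SCI (vertical axis) against mean log2 CPM, CPM being read counts scaled to a common library size (horizontal axis), with 1 point for each of 15179 genes tested. Red points are the 1912 genes called higher and blue points the 2968 called lower, dotted lines mark a rise of 1 and falls of 1 and 3 on the log2 scale, and 56 points lie at or under the lowest line.

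The share of genes called changed with abundance, which is given as log2 CPM averaged over the 20 samples fitted. It was 15.8% of 1626 genes below 0, 23.3% of 2102 genes from 0 to 2 and 32.3% of 3294 genes from 2 to 4. It reached 37.8% of 4805 genes from 4 to 6 and 38.8% of 2687 genes from 6 to 8, and was 31.3% of 665 genes above 8. The median standard error of a log2 fold change was 0.30 in the lowest class and 0.061 in the highest, so small changes of scarce genes were less detectable at this depth. In each of the 6 classes with TMM, more genes fell than rose. Among called genes, the median fall was -1.49 on the log2 scale below 0 and -0.28 above 8, and the median rise was 1.01 and 0.21. No trend of size with abundance can be read from these medians, since a scarce gene, with its larger standard error, had to change more to be called. Of the 665 most abundant genes, 0 changed by 1 or more on the log2 scale in either direction, although 208 were called.

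**Figure D2:**
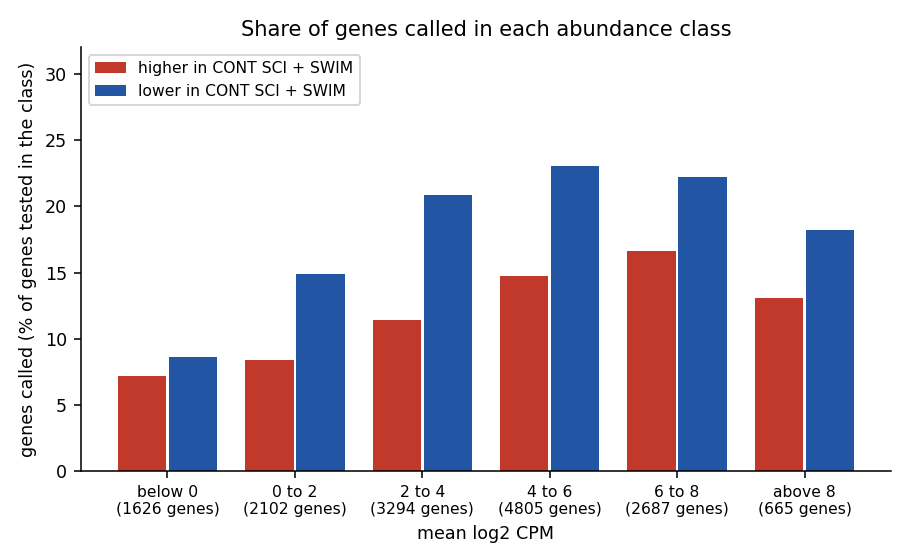
Share of the genes tested in each class of mean log2 CPM that was called higher (red bars) or lower (blue bars) in CONT SCI + SWIM than in CONT SCI, in percent. The share called lower rose from 8.61% in the scarcest class to 23.1% in the class from 4 to 6, and the share called higher rose from 7.20% to 16.6% in the class from 6 to 8.

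Taken as a sum, the genes that fell held a smaller part of the transcripts after swimming. The 2968 genes called lower summed to 230200 to 248700 CPM in the CONT SCI samples and to 183600 to 193000 CPM in the CONT SCI + SWIM samples. The 1912 genes called higher summed to 128900 to 138500 CPM in CONT SCI and 148300 to 162000 CPM in CONT SCI + SWIM. These sums are a description, since the genes were selected on the same samples. The same 2968 genes summed to 216600 to 237900 CPM in No SCI, 175200 to 190100 CPM in CONT SCI + SWW and 184800 to 192300 CPM in TX SCI.

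The largest fall was in ENSRNOG00000055936, which also had the smallest p of all genes tested. Its level was 61.4, 55.2, 49.4, 57.8, 86.1 and 81.6 CPM in CONT SCI replicates 1 to 6. In CONT SCI + SWIM replicates 1 to 5 it was 0.581, 0.740, 0.899, 0.961 and 0.972 CPM, from 12 to 29 reads a library. The highest swimming sample lay far below the lowest contused one. The log2 fold change was -6.28 (standard error 0.19, adjusted p = 1.55e-15 from edgeR's quasi-likelihood test), or 77.6-fold lower.

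Levels of ENSRNOG00000055936 in the other groups lay close to either the low or the high side. No SCI had 59.6 ± 7.28 CPM (SD, n = 4), and CONT SCI minus No SCI came to a log2 difference of 0.13 (standard error 0.13, adjusted p = 0.642 in edgeR). CONT SCI + SWW had 0.780 ± 0.195 CPM (SD, n = 5), and TX SCI, which did not train, had 1.21 ± 0.284 CPM (SD, n = 4). CONT SCI + SWIM minus CONT SCI + SWW came to 0.099 in log2 units (standard error 0.32, adjusted p = 0.897 in edgeR). The low level was therefore found in the swimming, water-walking and transected groups, which were collected at 8.5 or 13.5 weeks, and the high level in No SCI and CONT SCI, both collected at 11.5 weeks. The low groups thus held trained and untrained animals, and TX SCI differed in its injury as well. Between CONT SCI + SWIM and CONT SCI, week of collection, training and any step of processing that followed these groups cannot be told apart.

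ENSRNOG00000004757 fell next most among the genes that met the rule for naming, which asked for a call, no overlapping samples and 1 or more for the mean log2 CPM. Its level was 28.2, 28.7, 23.5, 22.3, 42.6 and 31.9 CPM in CONT SCI replicates 1 to 6, and 0.426, 0.617, 0.499, 0.994 and 0.748 CPM in CONT SCI + SWIM replicates 1 to 5. Again each swimming sample lay far below each contused sample. The log2 fold change was -5.44 (standard error 0.25, edgeR adjusted p = 6.13e-13), or 43.5-fold lower. No SCI had 24.4 ± 1.99 CPM (SD, n = 4), CONT SCI + SWW had 0.504 ± 0.342 CPM (SD, n = 5) and TX SCI had 1.11 ± 0.260 CPM (SD, n = 4).

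The largest rise under the same rule was in ENSRNOG00000049829. Its level was 0.810, 1.15, 1.18, 0.468, 0.921 and 1.16 CPM in CONT SCI replicates 1 to 6. It was 7.09, 5.86, 4.44, 1.33 and 6.43 CPM in CONT SCI + SWIM replicates 1 to 5. Replicate 4 lay just above the contused samples, and the other swimming samples lay well above them. The log2 fold change was 2.39 (standard error 0.40, edgeR adjusted p = 9.16e-05), or 5.24-fold higher. No SCI overlapped both groups, at 1.65 ± 1.00 CPM (SD, n = 4), CONT SCI + SWW had 4.13 ± 2.19 CPM (SD, n = 5), and TX SCI was highest at 18.3 ± 9.41 CPM (SD, n = 4). CONT SCI + SWIM minus CONT SCI + SWW came to 0.29 in log2 units (standard error 0.38, adjusted p = 0.711 in edgeR).

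ENSRNOG00000029996 rose with less spread. Its level was 1.57, 1.61, 1.81, 2.27, 2.03 and 1.74 CPM in CONT SCI replicates 1 to 6 and 6.55, 4.25, 4.99, 3.71 and 4.56 CPM in CONT SCI + SWIM replicates 1 to 5. Here swimming replicate 4 was again the lowest of its group and still above each contused sample. The log2 fold change was 1.38 (standard error 0.18, edgeR adjusted p = 4.38e-06), or 2.61-fold higher. CONT SCI + SWW had 4.71 ± 1.29 CPM (SD, n = 5), TX SCI had 4.39 ± 0.678 CPM (SD, n = 4) and No SCI had 1.57 ± 0.363 CPM (SD, n = 4). Paralogs and neighbours that might share reads with any of these 4 genes were not identified, so their levels are uncertain to that extent.

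**Figure D3:**
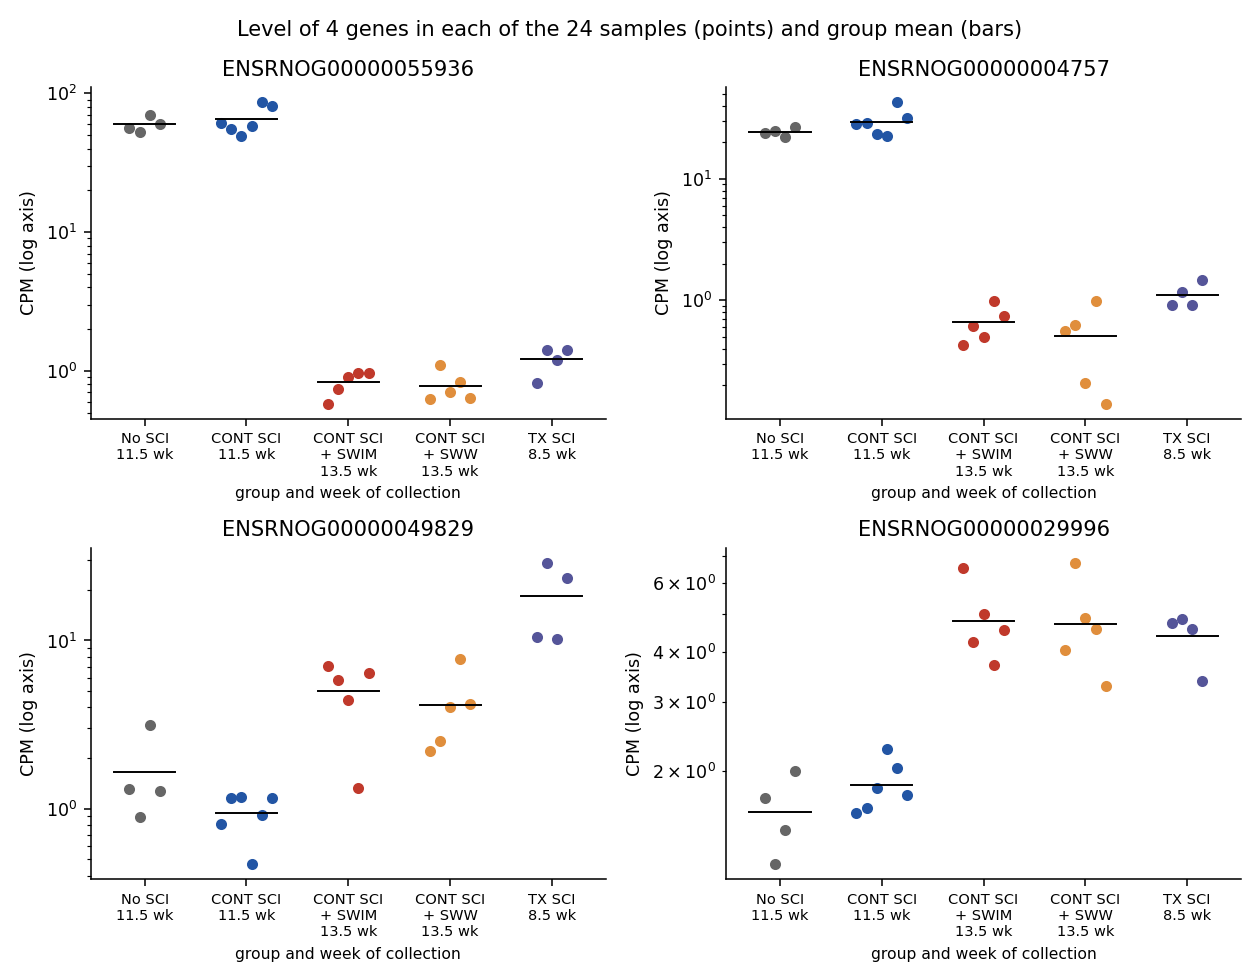
Level of the 4 genes in CPM on a log axis in each of the 24 samples, by group and week of collection, with 1 point per sample and a bar at the group mean. In the upper panels every swimming, water-walking and transected sample lies below 2 CPM and every sample of No SCI and CONT SCI above 20 CPM. In the lower panels every swimming sample lies above every CONT SCI sample, and for ENSRNOG00000049829 No SCI overlaps both groups.

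The 56 genes that fell by at least 3 on the log2 scale are described by their sum, with no test, since they were chosen on the same samples. Their summed level was 387.8 to 536.9 CPM in the 6 CONT SCI samples and 21.4 to 27.7 CPM in the 5 CONT SCI + SWIM samples. Within the groups, CONT SCI replicates 5 and 6 were high, and the swimming samples differed little. In No SCI the sum was 369.2 to 422.7 CPM, in CONT SCI + SWW 14.2 to 33.7 CPM and in TX SCI 28.8 to 43.3 CPM. The median of the 56 gene means was 2.07 CPM in CONT SCI and 0.0843 CPM in CONT SCI + SWIM, and a mean log2 CPM of 1 or more was found for 21 of the 56. At least 1 swimming sample had 0 counts for 25 of them, and 0 of them were at 0 in all 5. The number of such genes was 52 to 60 when each replicate of either group was left out in turn, but it depended on the filter and the tool. It was 85 without a filter on low counts, 11 when 10 counts were required in every sample and 81 with DESeq2.

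More genes crossed 1 CPM downward than upward. All 24613 rows of the matrix were examined. A level of at least 1 CPM in every CONT SCI sample and below 1 CPM in every CONT SCI + SWIM sample was found for 54 genes, and 5 genes showed the opposite. Crossing 1 CPM does not by itself mean a large change or an absent transcript. Of the 54, the mean of CONT SCI + SWW was below 1 CPM for 54, that of TX SCI for 50 and that of No SCI for 2. Of the 5, CONT SCI + SWW and TX SCI each had a mean of at least 1 CPM for 4 and No SCI for 1. These genes were chosen on CONT SCI + SWIM and CONT SCI, and the counts in the other groups are given as a description. The share of all rows below 1 CPM in each group was not computed.

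The largest rises were less even. For the 21 genes called higher by at least 2 on the log2 scale, the summed level was 4.68 to 13.9 CPM in CONT SCI. It was 55.7, 57.3, 46.5, 10.5 and 57.6 CPM in CONT SCI + SWIM replicates 1 to 5, so replicate 4 lay within the range of CONT SCI. It was the lowest swimming sample for 17 of the 21 genes, and for 16 it did not exceed the highest CONT SCI sample. The groups did not overlap for 3 of the 21, where 4.93% of all genes tested lay higher in CONT SCI + SWIM with no overlap. The sum was 9.90 to 19.9 CPM in No SCI, 24.9 to 72.5 CPM in CONT SCI + SWW and 87.7 to 267.9 CPM in TX SCI. Against No SCI, TX SCI was called higher for 16 of the 21 genes (18.5% of all genes tested) and CONT SCI + SWW for 11 (9.56% of all genes tested), and neither was called lower for any.

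The samples of each group were then placed on an axis that did not use them. For each sample in turn, the fit was repeated without it, and its levels over the genes then called were expressed as a position between the mean of the remaining CONT SCI samples (0) and that of the remaining CONT SCI + SWIM samples (1). The swimming samples lay at 1.04, 1.07, 0.944, 0.787 and 0.888 (replicates 1 to 5), and the contused samples at 0.0642, 0.0644, 0.0394, 0.181, -0.117 and 0.0181 (replicates 1 to 6). When only genes with a change below 1 on the log2 scale were used, the swimming samples lay at 0.759 to 1.06. The contused samples then lay at -0.15 to 0.124 apart from replicate 4, which lay at 0.371. No sample of either group crossed the midpoint in either of these positions. Swimming replicate 4 was the nearest of its group to CONT SCI on both measures, and its levels correlated most with those of the CONT SCI samples (median Pearson's r of 0.983 over 6 pairs and 15179 genes, against 0.979 to 0.981 for the other swimming samples). It was also the largest swimming library (29709101 counts), and the smallest, replicate 2 (16086670 counts), had the lowest median r. Whether depth set this order was not tested.

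**Figure D4:**
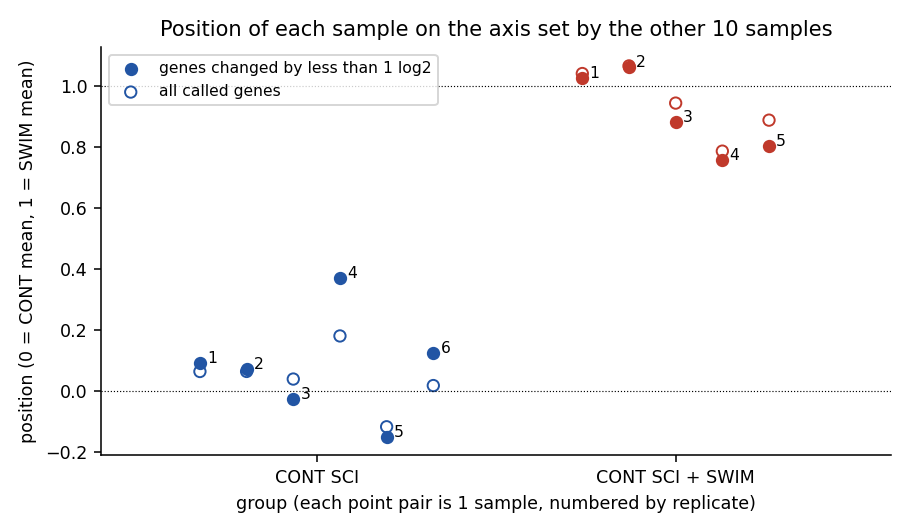
Position of each CONT SCI (blue) and CONT SCI + SWIM (red) sample on the axis from the CONT SCI mean (0) to the CONT SCI + SWIM mean (1), computed from the other 10 samples of these groups, with open circles for all called genes and filled circles for those changed by less than 1 on the log2 scale. Numbers are replicates. Swimming samples lie at 0.759 or above and contused samples at 0.371 or below.

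Samples of the same group correlated more than samples of different groups. Pearson's r of log2 CPM across 15179 genes, which are not independent replicates, was 0.988 to 0.993 over the 10 pairs within CONT SCI + SWIM and 0.988 to 0.994 over the 15 pairs within CONT SCI. It was 0.975 to 0.985 over the 30 pairs between the groups. Over all genes tested, the spread per gene was similar in both groups, and which of them was more even depended on 1 library. The median SD of log2 CPM was 0.132 in CONT SCI + SWIM and 0.157 in CONT SCI, and 0.120 in CONT SCI without replicate 4. The SD was larger in CONT SCI + SWIM for 40.4% of genes with all samples and for 56.6% without CONT SCI replicate 4. These shares varied with abundance. They were 59.35% and 61.5% for genes with a mean log2 CPM below 0, and 24.66% and 44.06% for those above 8.

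Swimming and shallow water walking were set side by side, since both groups were contused, trained for the same time and collected at the same week. CONT SCI + SWIM differed from CONT SCI + SWW at 454 of 15179 genes (2.99%), 405 higher in CONT SCI + SWIM (2.67%) and 49 lower (0.323%), by edgeR's quasi-likelihood test in the same fit. The median log2 difference was 0.35 over the 405 genes and -0.27 over the 49. Of the genes with a mean log2 CPM below 0, 0.123% were called, and of those above 8, 5.41%. No trend of the difference with abundance can be read from these shares, since small changes of scarce genes were less detectable. In the same fit CONT SCI + SWW differed from CONT SCI at 6522 genes (43%), 2833 higher (18.7%) and 3689 lower (24.3%), or 3800 higher and 3135 lower with upper-quartile scaling and 499 higher and 1748 lower with glmTreat, and it shares the CONT SCI samples with the comparison reported here. The number of genes that differed between the trainings rested on single libraries. It was 214 without CONT SCI + SWIM replicate 2 and 123 without CONT SCI + SWIM replicate 3. Without CONT SCI + SWW replicates 2, 3, 4 or 5 it was 187, 207, 149 and 811. The 49 genes lower in CONT SCI + SWIM numbered 0 without CONT SCI + SWW replicate 4 and 123 without CONT SCI + SWIM replicate 4. DESeq2 called 821 genes (661 higher, 160 lower), and glmTreat against 0.25 on the log2 scale called 3, all higher.

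Set against uninjured ganglia in the same fit, CONT SCI + SWIM differed from No SCI at 4262 genes (28.1%), 1821 higher (12%) and 2441 lower (16.1%). CONT SCI differed from No SCI at 1758 genes (11.6%), 1216 higher (8.01%) and 542 lower (3.57%), with both groups collected at 11.5 weeks. With upper-quartile scaling the splits were 2271 higher and 2254 lower for CONT SCI + SWIM against No SCI, and 994 higher and 742 lower for CONT SCI against No SCI. With glmTreat against 0.25 on the log2 scale they were 203 higher and 1177 lower, and 360 higher and 96 lower. Each of these shares 1 group of samples with the comparison of CONT SCI + SWIM and CONT SCI. Changes of at least 1 on the log2 scale numbered 85 higher (0.56%) and 451 lower (2.97%) in CONT SCI + SWIM against No SCI, and 100 higher (0.659%) and 71 lower (0.468%) in CONT SCI against No SCI. The count of CONT SCI against No SCI fell to 1132 without No SCI replicate 2, its rises to 800 and 724 without No SCI replicates 1 and 2, and its falls to 354 without No SCI replicate 4. The genes higher in CONT SCI + SWIM than in No SCI fell to 1097 without No SCI replicate 1 and 1022 without No SCI replicate 2.

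Finally, the comparison was set beside those that share no sample with it. In a fit of all 24 samples, 5005 of 15247 genes (32.8%) were called for swimming against contusion alone, 2002 higher (13.1%) and 3003 lower (19.7%). For CONT SCI + SWW minus No SCI, 3587 genes (23.5%) were called, 1458 higher (9.56%) and 2129 lower (14%). Both lists held 2731 genes, which is 54.6% of the first and 76.1% of the second, and 2730 of these changed in the same direction. Across the 15247 genes, the log2 fold changes correlated with r = 0.805 (Spearman's rho 0.691), a description over genes that were measured in 20 libraries and fitted together. This pair of comparisons differs in injury as well, since No SCI had none, and both set training and 13.5 weeks against no training and 11.5 weeks.

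TX SCI minus No SCI holds no trained animals, and its groups were collected at 8.5 and 11.5 weeks. In the same fit it had 5717 called genes (37.5%), 2818 higher (18.5%) and 2899 lower (19%). With the 5005 genes called for swimming it shared 2904, which is 58% of the first list and 50.8% of the second, and 2568 of the shared genes changed in the same direction and 336 in the opposite one. Of the 5005 genes, called or not in TX SCI, 82.8% of those higher and 78.3% of those lower after swimming had the same sign in TX SCI minus No SCI, against 59.8% of the genes not called after swimming. The correlation across 15247 genes was r = 0.587 (Spearman's rho 0.448). Of the 56 largest falls, 55 were tested here, and 54 of them were called lower in TX SCI (19% of all genes) and 55 in CONT SCI + SWW (14% of all genes), with medians of -3.54 and -4.02 on the log2 scale.

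**Figure D5:**
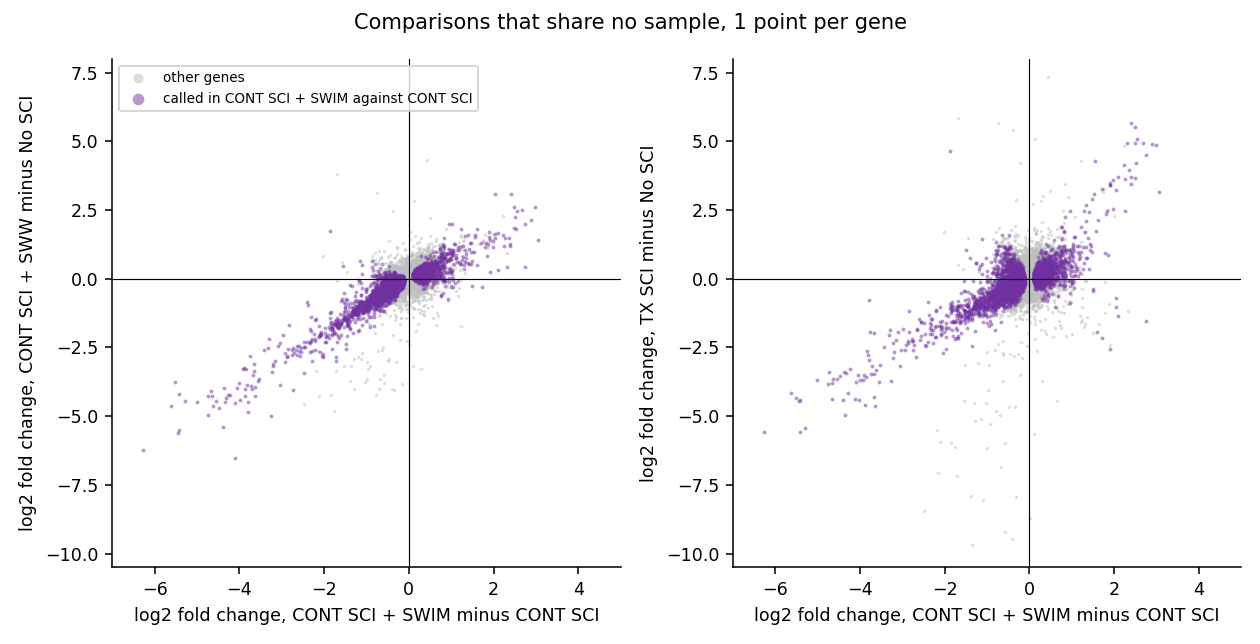
Log2 fold change of CONT SCI + SWIM minus CONT SCI (horizontal axes) against that of CONT SCI + SWW minus No SCI (left) and of TX SCI minus No SCI (right), with 1 point for each of 15247 genes and genes called in the first comparison in purple. The large falls lie along the lower left of both panels. Over all 15247 genes, r was 0.805 in the left panel and 0.587 in the right.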

How the data were processed

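RNA of whole DRG from 24 rats was sequenced, of which 11 are compared here. Per the study's methods, reads were checked with FastQC 0.10.1, aligned with STAR to Rn6 and counted by HTSeq 0.10.0 with strand on Ensembl genes without mitochondrial genes. The authors deposited raw whole-number counts. Reads that fall on several genes can be lost in such counting.

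R 4.3.3 with edgeR 4.0.16 was used on the counts. A single fit held 20 samples, those of all groups but TX SCI. The filterByExpr filter, with a minimum count of 10 and a minimum total of 15, passed 15179 of 24613 rows and at least 99.975% of each compared sample's counts, and libraries were scaled by TMM. P-values of glmQLFTest were adjusted by the Benjamini-Hochberg method over all genes tested, with a threshold of 0.05. Standard errors were derived from the fold change and its F statistic. Log2 CPM used a prior count of 2. Levels in CPM use TMM factors of all 24 samples. Depth was compared by exact permutation in Python 3.11.15 with scipy 1.17.1. Alternatives were DESeq2 1.42.0, other scalings, filters, samples and blocks, thinned libraries and left-out replicates.

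On simulated counts for this comparison, 139 of 200 genes changed by 0.5 on the log2 scale (69.5%, 15072 genes tested) and 187 of 200 changed by 1 (93.5%, 15078 genes tested) were called, with 9 and 13 others. With no change, 0 of 15073 were called. The simulated counts changed far fewer genes than the 4880 called in the data. Recovery and false calls with that many changes were not tested.

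The groups compared, the gene lists and the tests were chosen with earlier results of these data known. The rule for named genes asked for a symbol, which the annotation table (GRCr8) gave for 0 rows, so it was applied without one: the 2 largest rises and 2 largest falls by log2 fold change among called genes with a mean log2 CPM of 1 or more whose groups did not overlap. Lists by symbol, marker genes and promoter sequences were not used here. Replicate numbers belong to different animals and were not used to pair samples.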

Additional observations from a re-analysis of the deposited data

Results flagged for a closer look

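A test for a sample that lies far from its group was run on 44 sets of values. With independent sets chance would give about 2.2 such samples, but these sets share samples and no test against chance was made. Of 4 found, 3 were for replicate 4 of CONT SCI. This library had 2.61% of its reads on a single gene, where the rest of the group had 1.52% to 1.74%. Its correlation with the rest of the group averaged 0.98887, and the same average was 0.991 to 0.992 in the rest. On the axis set by the other samples, 44.8% of the genes called without it lay nearer to CONT SCI + SWIM, and 6.43% to 17.4% did so in the remaining contused samples. In replicate 4 the share was 54.5% of the genes called higher and 37.8% of those called lower.

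CONT SCI + SWIM replicate 4 stood apart in the summed level of the 21 genes called higher by at least 2 on the log2 scale, with 10.5 CPM against 46.5 to 57.6 CPM in the other swimming samples. These sets were partly defined on the same samples.

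CONT SCI + SWIM and CONT SCI + SWW differed from each other at 454 genes in edgeR's quasi-likelihood test, which is also the test of the difference between their changes from CONT SCI.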

How the results depend on the processing

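The difference between CONT SCI + SWIM and CONT SCI was called for 4880 genes and for 4036 to 5451 with each replicate left out in turn, 1520 to 2277 higher and 2487 to 3174 lower. It stayed within 1.5 times of 4880 under each other alternative except glmTreat against 0.25 on the log2 scale, which gave 1322 (198 higher, 1124 lower). Upper-quartile scaling gave 2946 genes higher. DESeq2 shared 4667 of its 5048 calls with the 4880, with the same sign. Genes lower by at least 3 on the log2 scale numbered 85 without a filter and 11 when 10 counts were required in every sample, a filter that drops a gene with fewer counts in any of the samples fitted. The 4 named genes kept their direction and call in every alternative that tested them, and ENSRNOG00000004757 was not tested under that filter. The difference in library totals was -11861938 to -8456330 counts with each replicate left out.

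A block on the replicate number left 4301 genes called (1621 higher), or 4308 without CONT SCI replicate 6, whose number no other group shares, and the numbers do not pair the animals: deviations of same-numbered samples correlated at -0.177 to -0.048, and 0 of 5 swimming samples correlated best with the CONT SCI sample of their number. For swimming against shallow water walking the block gave 251 genes (238 higher, 13 lower), where other alternatives gave 821 (661 and 160) with DESeq2 and 3 (3 and 0) with glmTreat, with 22 lower without a filter and 89 lower with just these groups fitted. Left-out replicates gave 123 to 811, with 122 to 697 higher and 0 to 123 lower. GlmTreat gave 2247 (499 and 1748) for CONT SCI + SWW against CONT SCI, 1380 (203 and 1177) for CONT SCI + SWIM against No SCI and 456 (360 and 96) for CONT SCI against No SCI. Left-out replicates gave 5917 to 6723 (2428 to 2987 and 3343 to 3736), 3158 to 4620 (1022 to 1924 and 2042 to 2696) and 1132 to 1716 (724 to 1201 and 354 to 556) for these. The cause of these shifts was not tested. After all libraries were thinned to the smallest total, 4464 genes were called, and the effect of depth by abundance was not tested.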
